A study of Mus musculus with 446 samples.

Results

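The 5 genes described are the major urinary protein genes Mup3, Mup7, Mup14, Mup20 and Mup21, chosen by name and matched by symbol to rows of the liver and muscle tables. All 5 were found among the 47643 genes of each of these tables, and 21 genes in all are annotated as Mup followed by a number. RNA came from the liver, skeletal muscle and abdominal fat of males of the Diversity Outbred stock, in which every animal is genetically different. Mice were 6 weeks old when obtained and were all kept on the control diet (D12450J or D12450JN, 10 kcal% fat) until the study began. They then ate either that diet or the high-fat diet (D12492 or D12492N, 60 kcal% fat) for 14 weeks. Mice 1 to 75 were control and mice 76 to 150 high-fat, and 74 mice per diet entered each liver and muscle comparison. Mup genes in adipose tissue were not analysed here.

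Major urinary proteins are small secreted lipocalins, barrel-shaped proteins that hold small hydrophobic molecules. Hepatocytes of male mice make them in large amounts, and they pass through the blood to the urine, where they carry volatile pheromones and act as individual scent signals. Their transcription in liver depends on pulses of growth hormone through the kinase Jak2 and the transcription factor Stat5b, and also on androgen, thyroid hormone and glucocorticoid. The genes lie in 1 cluster of near-identical copies on chromosome 4 with many pseudogenes. Mup7 and Mup14 belong to the very similar genes of the cluster's centre, and Mup3, Mup20 and Mup21 to the more divergent genes at its edges. Mup20 encodes darcin, the pheromone of male urine that attracts females.

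Values are TPM, a relative abundance in which each gene is corrected for its length and each library adds up to the same total, so levels of different genes can be compared and the sequencing depth is unknown. Each library was divided by a scale factor from its nuclear protein-coding genes without Lars2, giving scaled TPM. The share of TPM in these genes ran from 0.41% to 74.9% in liver and from 2.54% to 76% in muscle. The scale factor was under 1/3 of the tissue's median in 14 control and 12 high-fat liver libraries. The same held in 2 control and 9 high-fat muscle libraries. Mouse 80 was left out of all comparisons, since both of its libraries go against their tissue labels. Its library labelled muscle held 52314 TPM of summed Mup genes and 82195 TPM of hepatocyte markers as deposited, against medians of 4.37 and 7.69 over all muscle libraries. Its library labelled liver held 138.8 TPM of Mup genes, 473.2 TPM of hepatocyte markers and 144925 TPM of muscle fibre markers, against medians of 35159, 65720 and 1.25 TPM over all liver libraries. In the liver libraries used, 9 hepatocyte markers such as Alb summed to between 34668 and 94799 scaled TPM, and in control muscle the fibre gene Acta1 had a median of 21313.

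The sequences come first because the genes are so alike that a read can match several of them. Over the longest coding sequences in GENCODE M21, Mup7 and Mup14 shared 535 of 540 aligned bases (99.1%). Mup3 and Mup21 were 96.3% identical, Mup20 was 90.6% identical to Mup7, and the other pairs lay between 83.1% and 90.9%. A stretch of 90 coding bases that aligns without gaps in all 5 genes shows these degrees of likeness, with capitals where a base differs from Mup7:
Mup7: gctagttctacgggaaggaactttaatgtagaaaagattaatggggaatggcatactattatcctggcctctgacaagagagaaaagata
Mup14: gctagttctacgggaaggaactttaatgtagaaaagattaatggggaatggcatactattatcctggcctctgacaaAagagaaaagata
Mup20: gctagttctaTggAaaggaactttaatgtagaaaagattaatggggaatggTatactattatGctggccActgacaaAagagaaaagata
Mup3: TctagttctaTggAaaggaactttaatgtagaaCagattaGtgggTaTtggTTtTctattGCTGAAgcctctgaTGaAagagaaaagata
Mup21: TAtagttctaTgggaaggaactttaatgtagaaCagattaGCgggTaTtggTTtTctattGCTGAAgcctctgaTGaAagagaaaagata
Mup14 differed from Mup7 at 1 of these 90 bases, Mup20 at 6, Mup3 at 19 and Mup21 at 20. Of all stretches of 50 bases in the longest transcript, 97.6% in Mup14 and 90.2% in Mup7 also occurred in another Mup gene or pseudogene. The share was 50.1% in Mup20, mostly from the pseudogene Mup-ps19, 19.3% in Mup21 and 15.6% in Mup3. How the authors' quantification divided reads among such copies is not stated here. Levels of Mup7 and Mup14 are therefore uncertain as single values, and sums over genes are given beside them.

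The promoters are shown as a description, and their part in how the genes varied across mice was not tested. No promoter of Mup20 was used. RefSeq (GRCm38.p6) gave a window of 250 bases before to 50 after the annotated start for Mup7, Mup14, Mup3 and Mup21. These are the windows on chromosome 4, 5′ to 3′, with capitals for the letters TATATAA of a TATA element and for AGAACA, a half-site of the glucocorticoid receptor, both searched on both strands:
Mup7 (chr4:60070426-60070725, minus strand): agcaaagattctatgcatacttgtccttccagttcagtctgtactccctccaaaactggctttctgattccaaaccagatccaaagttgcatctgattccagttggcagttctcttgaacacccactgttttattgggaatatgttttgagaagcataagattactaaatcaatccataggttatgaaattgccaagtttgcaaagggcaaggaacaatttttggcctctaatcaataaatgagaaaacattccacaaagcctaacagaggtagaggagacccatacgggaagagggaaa
Mup14 (chr4:61303949-61304248, minus strand): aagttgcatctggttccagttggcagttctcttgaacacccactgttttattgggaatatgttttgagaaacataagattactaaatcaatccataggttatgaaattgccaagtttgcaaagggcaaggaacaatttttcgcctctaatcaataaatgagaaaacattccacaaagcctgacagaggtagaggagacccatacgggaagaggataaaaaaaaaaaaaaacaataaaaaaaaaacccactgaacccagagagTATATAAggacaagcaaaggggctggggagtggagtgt
Mup3 (chr4:62087268-62087567, minus strand): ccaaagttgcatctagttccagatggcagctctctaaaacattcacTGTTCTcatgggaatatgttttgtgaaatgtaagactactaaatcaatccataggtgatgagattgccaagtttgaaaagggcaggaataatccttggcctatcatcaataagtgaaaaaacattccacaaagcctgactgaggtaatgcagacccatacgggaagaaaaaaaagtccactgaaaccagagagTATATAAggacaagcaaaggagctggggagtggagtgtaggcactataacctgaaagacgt
Mup21 (chr4:62150792-62151091, minus strand): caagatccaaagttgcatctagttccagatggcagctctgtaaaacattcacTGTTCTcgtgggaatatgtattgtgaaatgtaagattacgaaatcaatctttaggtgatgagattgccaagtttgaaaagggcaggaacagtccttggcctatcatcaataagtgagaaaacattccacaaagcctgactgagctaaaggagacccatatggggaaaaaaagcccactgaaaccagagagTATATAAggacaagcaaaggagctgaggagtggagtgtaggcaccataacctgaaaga
Mup7 and Mup14 were identical at 211 of 217 aligned bases (97.2%) and Mup3 and Mup21 at 276 of 294 (93.9%), while pairs across these couples lay between 83.3% and 88%. TATATAA stood in 13 of the 14 Mup windows, against 3.24% of 32851 windows of all genes. The exception was Mup7, whose window runs further upstream than that of Mup14. Counted from the annotated start, the first base of TATATAA lay at -11 in Mup3, at -8 in Mup21 and at 12, after the start, in Mup14. These letters were chosen after the windows had been seen: a first search for TATAAA found 2 of 14, Mup4 and Mup6, against 13.6% of all windows. The first search also included CAAAGTCCA, a motif of the hepatocyte factor Hnf4a, and TTGCGCAA, a motif of the C/EBP factors, which were in 0 of 14 windows and in 0.475% and 0.183% of all. AGAACA was found in Mup3 and Mup21, 2 of 14, against 19% of all windows. The letters TTCNNNGAA, the Stat5 motif, were in none of the 14 windows and in 8.3% of all. No matches of these motifs overlap in the windows printed.

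The first comparison asked how much of each gene the liver held and how far mice differed. Mup7 had the highest level of the 5, between 2705 and 48616 scaled TPM with a median of 21548 in control mice, and between 1599 and 53177 with a median of 28149 in high-fat mice. Mup3 followed with 112.5 to 10604 (median 5872) and 2344 to 9995 (median 6285). Its low end in control liver came from 2 mice far below the rest, as the plot of levels shows. Mup20, darcin, had 270 to 12351 (median 1520) and 97.7 to 9066 (median 1670). Mup14 had 89.6 to 14479 (median 991) and 306 to 33589 (median 1778), and Mup21 had 32.4 to 1623 (median 410) and 13.8 to 1686 (median 527). The ranges of the 2 diets overlapped for every gene.

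**Figure D1:**
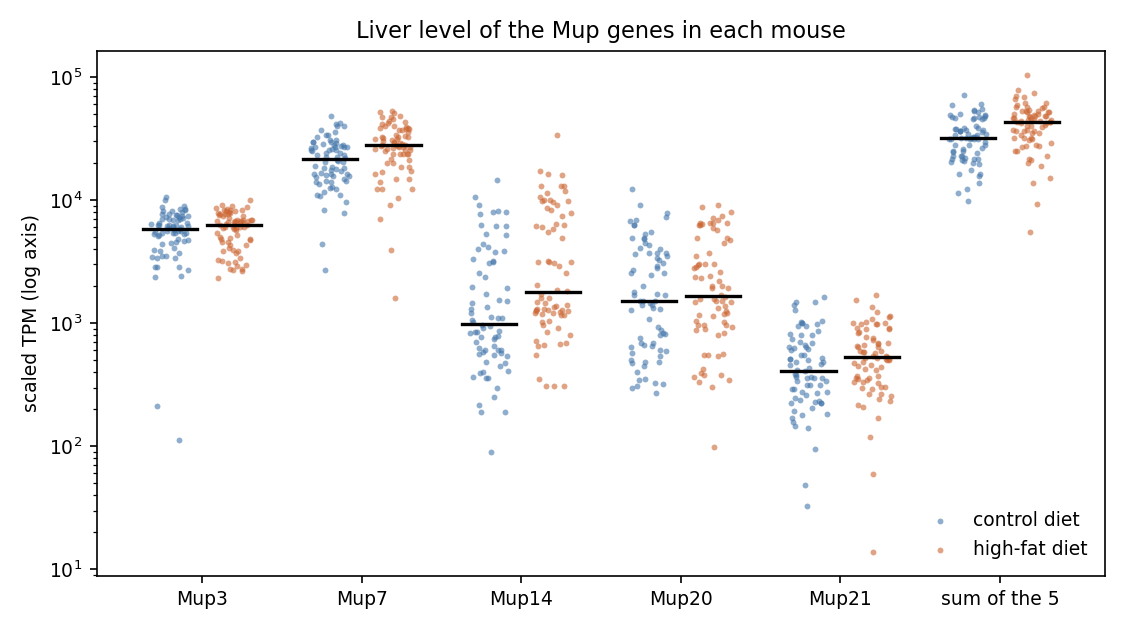
Scaled TPM (log axis) of each Mup gene and of their sum in liver, 1 point per mouse, with 74 control (blue) and 74 high-fat (orange) mice and a black line at the median. Mup7 lies highest at medians of 21548 and 28149, and Mup14 and Mup20 spread most from mouse to mouse.

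Within a mouse the order at the top was nearly fixed. Mup7 was the highest of the 5 in 72 of 74 mice on each diet and Mup3 in the other 2. Mup3 lay above Mup20 in 64 control and 60 high-fat mice. The order of Mup20 and Mup14 differed from mouse to mouse: Mup14 was above Mup20 in 34 of 74 control mice and in 53 of 74 high-fat mice. Mup21 was below Mup14 in 59 and 67 mice and below Mup20 in 70 and 67. Mup7 made up a median of 67.8% of the summed level in control and 65.6% in high-fat liver, and Mup14 2.92% and 5.59%, with a highest share of 32% in 1 high-fat mouse.

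The genes differed in how much they varied among mice. The level at the 90th percentile of mice was 17.4 times that at the 10th for Mup14 in control and 17.1 times in high-fat liver, and 14.5 and 16.2 times for Mup20. For Mup21 it was 5.61 and 4.15 times, for Mup7 3 and 3.42 times, and for Mup3 2.72 and 2.7 times. The summed hepatocyte markers spanned 1.53 and 1.39 times in the same mice. Some other Mup genes spanned more than Mup14, such as Mup18 with 345 and 220 times. Mup18 had 22.4 and 7722 scaled TPM at these percentiles in control mice. Others spanned less than Mup14, such as Mup16 with 6.02 and 4.75 times and Mup10 with 9.17 and 11.1 times. These are descriptions of the same libraries, and genes with shared reads are not independent of each other.

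The sum of the 5 genes depends less than single values on how reads were split among them. It is not free of that split, since TPM are corrected for gene length. The sum also depends on how reads were split with other Mup genes. The transcript closest to Mup7 was that of Mup1, with 64.1% of stretches shared, and the closest to Mup14 was that of Mup8, with 82.3%. The sum ran from 9869 to 71996 scaled TPM with a median of 32012 in control liver and from 5525 to 104902 with a median of 43329 in high-fat liver. The means were 33316 ± 12909 and 42677 ± 16705 (SD, n = 74 each). The sum was 0.34 ± 0.11 (SE) higher on the log2 scale in high-fat mice, and 55 of 74 high-fat mice lay above the control median (permutation test, two-sided, p = 0.00139). The same direction held for all 21 annotated Mup genes added together, with medians of 79715 and 113060 scaled TPM and a difference of 0.42 ± 0.11 (permutation p = 0.00016). Of the TPM of nuclear protein-coding genes without Lars2, they made up a median of 15.7% in control and 21.2% in high-fat liver. The highest share was 40.1% in 1 mouse. With TPM as deposited the difference of the 5-gene sum was 0.23 ± 0.27 (permutation p = 0.393), so the call rests on the scaling. With mouse 80 included, whose library labelled liver held mostly muscle fibre RNA among the markers measured, it was 0.22 ± 0.16 (permutation p = 0.181).

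Of 9 hepatocyte markers tested, 5 fell on the high-fat diet and none rose: the fibrinogen chain Fgb by -0.30 ± 0.05 (adjusted p = 7.53e-07, limma), the thyroxine carrier Ttr by -0.19 ± 0.05 (adjusted p = 0.00181, limma), albumin (Alb) by -0.20 ± 0.05 (adjusted p = 0.00486, limma), and the apolipoproteins Apoa1 and Apoa2 by -0.17 ± 0.05 and -0.16 ± 0.05 (adjusted p = 0.0149 and 0.0157, limma). Over all 12298 liver genes tested, 4.71% were called higher and 5.12% lower. The protease inhibitor gene Serpina1c had the change farthest from 0 of the 9 markers and the sign of the Mup genes, at 0.51 ± 0.18 (adjusted p = 0.0575, limma). Serpina1a, Ahsg and Apoc3 lay near 0, at -0.0087, -0.030 and -0.016. Apoa2 and these 4 were outside the naming rule and are named after their values were seen. The sum of Mup genes divided by the summed hepatocyte markers had medians of 51.4% in control and 73.1% in high-fat liver, a log2 difference of 0.47 ± 0.11 (permutation p = 2e-05). In bulk tissue fewer cells of a type and less RNA per cell cannot be told apart. Of the other cell types, 0 of 5 tested erythrocyte, 0 of 2 adipocyte and 0 of 1 muscle fibre markers passed the test, and 1 of 4 macrophage markers fell. The summed muscle fibre markers ranged from 0 to 3191 scaled TPM in control and 0 to 5681 in high-fat liver, with medians of 1.52 and 1.33, and their part in the result was not tested.

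Gene by gene, 1 of the 5 passed the test across all genes. It was Mup14, whose single value is uncertain, as 97.6% of its stretches of 50 bases also occurred in another Mup gene or pseudogene. Mup14 rose from a mean of 2346 ± 2876 to 4789 ± 5676 scaled TPM (SD, n = 74 each), a log2 fold change of 1.03 ± 0.27 (adjusted p = 0.00436, limma), and 60 of 74 high-fat mice lay above the control median. Mup7 had 0.34 ± 0.13 (adjusted p = 0.069, limma), with 55 of 74 above. Mup21 had 0.27 ± 0.17, Mup20 0.17 ± 0.24 and Mup3 0.14 ± 0.13 (adjusted p = 0.402, 0.762 and 0.587, limma). The 95% intervals of these 3 ran from -0.08 to 0.61, -0.31 to 0.64 and -0.11 to 0.40. For comparison, 9.83% of 12298 liver genes tested were called, 4.71% higher and 5.12% lower, and the median fold change over them was -0.0029. Mup14 did not pass with TPM as deposited (0.92, adjusted p = 0.705, limma), when 59 genes in all were called. Mup7 passed without the 4 control and 7 high-fat libraries that carry a second number in their label (0.36, adjusted p = 0.0473, limma).

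Across the family, 18 of the 21 annotated Mup genes were tested, and 3 rose and 0 fell. All 18 had positive fold changes, with a median of 0.49. They were Mup14, Mup19 (2.17 ± 0.73, adjusted p = 0.0403, limma) and Mup9 (0.81 ± 0.27, adjusted p = 0.0391, limma). Mup19 lay near 0 in some mice and at 18244 scaled TPM in the highest control mouse and 56801 in the highest high-fat mouse, and its medians were 951 and 3928. Mup9 had medians of 3332 and 6077. The abundant Mup1 and Mup10, with control medians of 15131 and 13359 scaled TPM, had 0.12 ± 0.26 and 0.32 ± 0.37 (adjusted p = 0.85 and 0.703, limma). Mup4, Mup5 and Mup6 had medians under 0.4 scaled TPM on both diets and were not tested. Shared reads make these 18 values dependent on each other, and their signs carry no separate test. The positive count was also 18 with TPM as deposited and 17 without low-factor libraries, where Mup20 was negative. The number called was 0 with TPM as deposited, 1 without low-factor libraries and 1 with mouse 80.

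**Figure D2:**
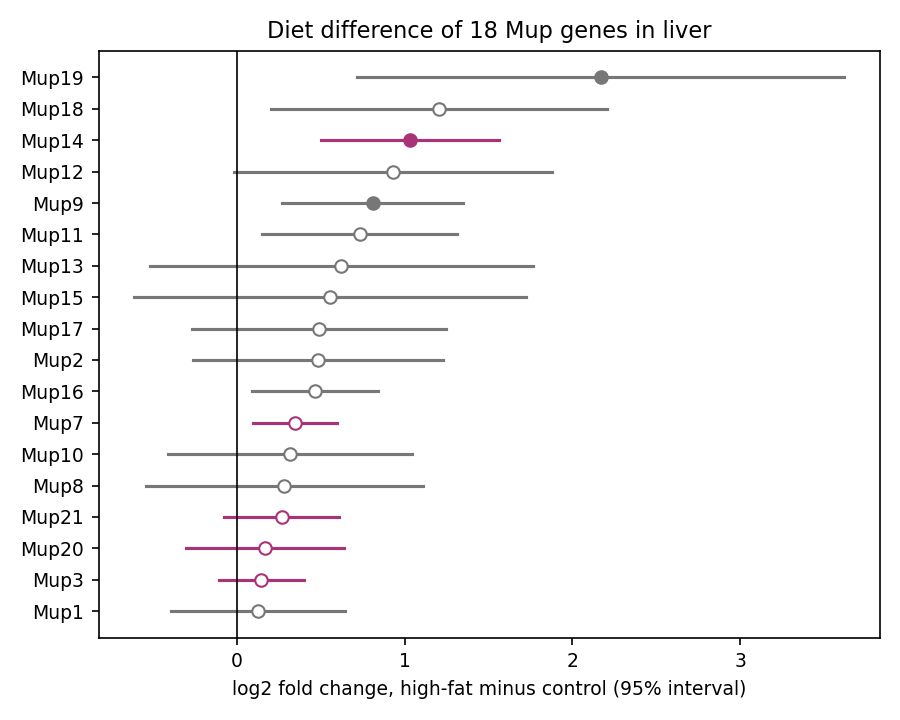
Log2 fold change, high-fat minus control, with its 95% interval for the 18 tested Mup genes in liver (limma; purple for the 5 genes described, filled where the adjusted p is under 0.05). All 18 points lie above 0, and Mup14, Mup19 and Mup9 are filled.

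The genes were also summed by sequence likeness. Mup7 and Mup14 together had medians of 23752 and 33015 scaled TPM, a difference of 0.42 ± 0.13 on the log2 scale (permutation p = 0.00158). Mup3 and Mup21 together had medians of 6253 and 6826, a difference of 0.10 ± 0.09 (permutation p = 0.295). These 2 sums were chosen after the values were seen, and the difference between them was not tested.

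The series was made to look at variability among mice, so the spread around each diet's median was compared as well. The mean absolute deviation on the log2 scale was 1.31 in control and 1.41 in high-fat liver for Mup14, 1.26 and 1.19 for Mup20, 0.84 and 0.73 for Mup21, 0.55 and 0.55 for Mup7, and 0.52 and 0.42 for Mup3. None of the 5 passed the test between diets (adjusted p = 0.998 each, limma), and 0 of 5 had an unadjusted p under 0.05. Of 7325 genes tested for spread, 0.0273% were called. Mup19 had the largest difference of the tested Mup genes, with 4.02 in control and 2.67 in high-fat liver (-1.35 ± 0.53, adjusted p = 0.998, limma).

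Whether the genes vary together was examined across mice, within each diet. Of 10 pairs, 7 passed in control and 5 in high-fat liver by Spearman's rho, with Benjamini-Hochberg adjustment over all 20 relations, and all that passed were positive. The share of pairs of other genes that pass in these livers was not measured, so these counts have no background beside them. Without low-factor libraries 7 and 4 passed, as Mup3 with Mup14 in high-fat mice went from rho = 0.289 (adjusted p = 0.0212) to 0.241 (adjusted p = 0.102). Mup20 and Mup21 had rho = 0.548 in control mice (permutation p = 1e-05, the smallest the permutations can give, adjusted p = 6.67e-05) and Pearson's r = 0.561 (adjusted p = 6.67e-05), or 0.524 without the 2 mice farthest from the median. In high-fat mice they had rho = 0.395 (adjusted p = 0.00142) and r = 0.502 (adjusted p = 6.67e-05), or 0.411 without 2 mice. Mup14 and Mup20 had rho = 0.388 and 0.542 (adjusted p = 0.00142 and 6.67e-05). Mup7 and Mup14, whose transcripts share the most sequence, had rho = 0.489 and 0.401 (adjusted p = 1e-04 and 0.00131). Mup3 and Mup20 had rho = 0.0794 and -0.0496 (adjusted p = 0.558 and 0.672), and the 2 values point in opposite directions. Mup3 and Mup21, whose promoters are much alike, had rho = 0.245 and 0.108 (adjusted p = 0.0551 and 0.42). For Mup3 and Mup7 in control mice r was 0.0707 and rho 0.368, and r was 0.299 without 2 mice, so the Pearson value rests on those mice. Shared reads can tie values of similar genes together, and their part in these relations was not tested.

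**Figure D3:**
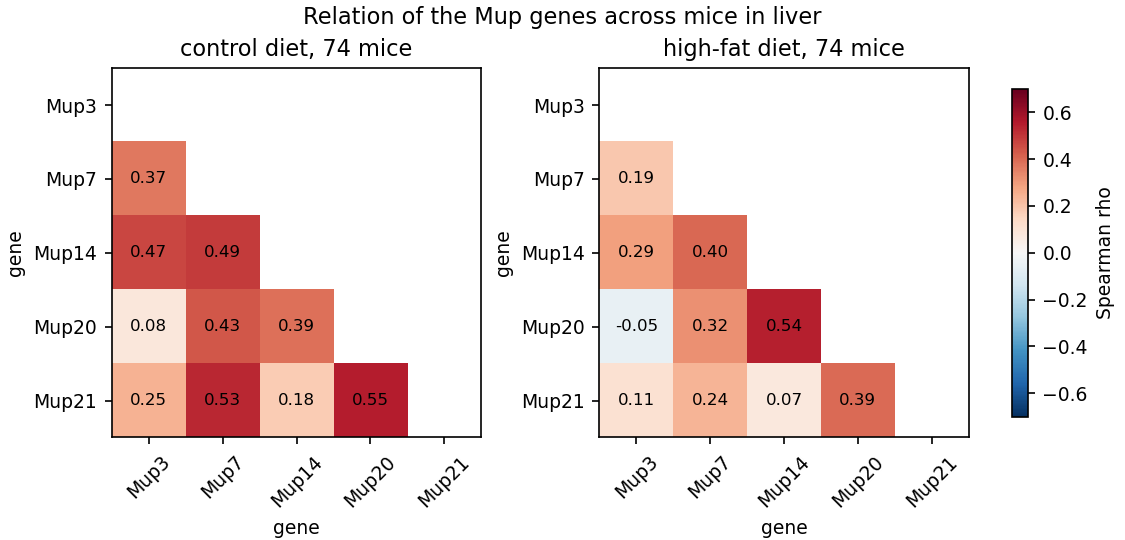
Spearman's rho between each pair of the 5 genes across 74 control mice (left) and 74 high-fat mice (right) in liver, with red for positive and blue for negative values. The highest values are 0.55 for Mup20 with Mup21 in control and 0.54 for Mup14 with Mup20 in high-fat liver, and Mup3 with Mup20 lies near 0 in both.

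The summed level of the 5 genes was then set against genes of the hormone pathways that act on the Mup cluster and against other genes that differ between the sexes in liver, with 61 genes in each diet and adjustment over both diets. Mup7 made up a median of 67.8% of this sum in control and 65.6% in high-fat liver. The sum of all 21 Mup genes was not set against these genes. Among 15 male-biased genes, 7 passed as positive in control and 10 in high-fat mice, and the 7 were all among the 10. The smallest rho that passed in any list was 0.305 in size. Of 12275 tested genes outside the Mup family, 1.76% in control and 5.5% in high-fat mice were at least that far above 0, and 0.88% and 2.58% that far below. Cyp7b1, which hydroxylates oxysterols, had rho = 0.61 and 0.678 (adjusted p = 0.000174 each) and r = 0.636 and 0.726 (adjusted p = 0.000122 each), or r = 0.588 and 0.635 without the 2 mice farthest from the median of the sum. The steroid dehydrogenase Hsd3b5 had rho = 0.656 and 0.509 (adjusted p = 0.000174 each). The glutathione transferase Gstp1 had rho = 0.438 and 0.542 (adjusted p = 0.000895 and 0.000174), and Selenbp2, a selenium binding protein, 0.447 and 0.454 (adjusted p = 0.000915 and 0.000366). The cytochrome P450 Cyp2d9 had 0.104 and 0.197 (adjusted p = 0.599 and 0.226). Gstp1, Selenbp2 and Cyp2d9 have close paralogs, so their single values are uncertain. Without low-factor libraries 7 and 9 male-biased genes passed. The one lost was the uptake carrier Slco1a1 in high-fat mice, at 0.423 (adjusted p = 0.00115) with all libraries and 0.309 (adjusted p = 0.0664) without. Of 6 female-biased genes, 1 passed in each diet, and it was the cytochrome P450 Cyp2b9 with rho = -0.428 and -0.373 (adjusted p = 0.00122 and 0.00665). Cyp2b9 lay near the floor, with medians of 0.125 and 0.697 scaled TPM in control and high-fat liver. Without low-factor libraries Cyp2b9 had -0.450 and -0.324 (adjusted p = 0.00394 and 0.0536). The difference of these relations between diets was not tested.

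Of 12 tested genes of growth hormone signalling, 1 passed in each diet: the growth hormone receptor Ghr in control mice (rho = 0.384, adjusted p = 0.00424) and Igfals, which binds IGF complexes in blood, in high-fat mice (rho = 0.468, adjusted p = 0.000444). Stat5b had rho = -0.163 and 0.0267 and Jak2 -0.0924 and -0.0808, and none of these passed. Without low-factor libraries Jak2 in high-fat mice had rho = -0.316 (adjusted p = 0.0634) and r = -0.401 (adjusted p = 0.00848). Igf1, the main hepatic product of growth hormone action, had rho = 0.126 and 0.29 (adjusted p = 0.506 and 0.0541). Of 19 hormone receptors and regulators, 0 passed in control mice and 4 in high-fat mice: Dio1, which activates thyroid hormone (rho = 0.363, adjusted p = 0.00843), the hepatocyte factors Hnf4a (0.332, adjusted p = 0.0211) and Cebpa (0.305, adjusted p = 0.0371), and Foxo1 (-0.306, adjusted p = 0.0366). Without low-factor libraries only Foxo1 of these 4 passed (-0.382, adjusted p = 0.015). Of 9 hepatocyte markers 0 passed in control and 3 in high-fat mice, all positive. Without low-factor libraries 1 passed in each diet with opposite signs, Alb in control (-0.354, adjusted p = 0.0345) and Apoa1 in high-fat mice (0.409, adjusted p = 0.0066).

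**Figure D4:**
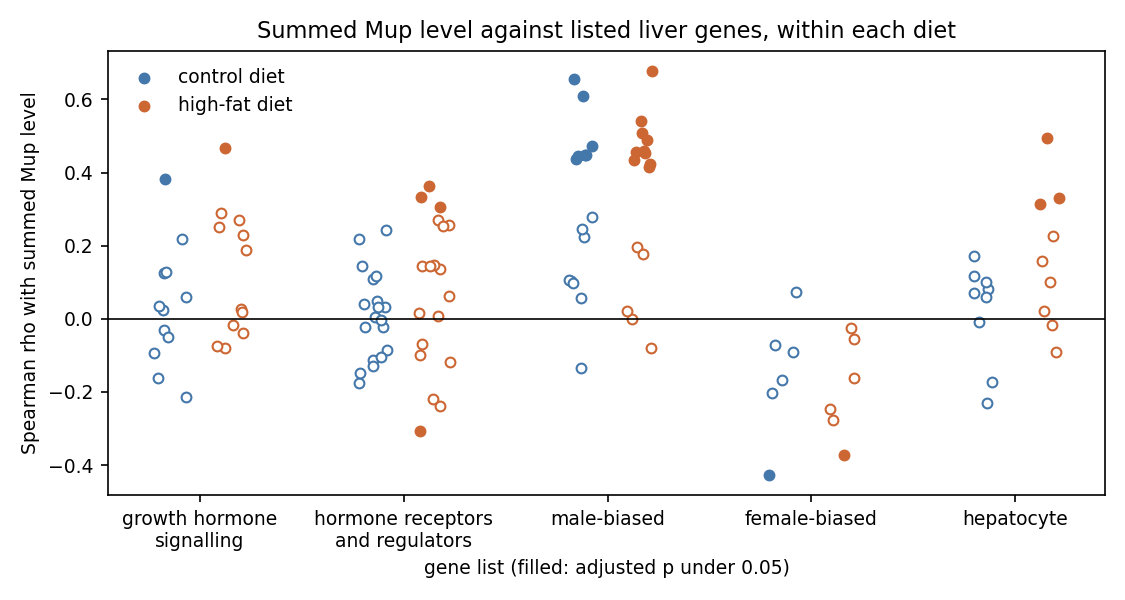
Spearman's rho of the summed level of the 5 Mup genes with each tested gene of 5 lists across 74 control (blue) and 74 high-fat (orange) mice, with filled points where the adjusted p is under 0.05. Male-biased genes lie mostly above 0, with 7 filled in control and 10 in high-fat mice, and Cyp2b9 is the filled female-biased gene in both.

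The same lists were compared between the diets in liver, where 4.71% of all 12298 genes tested were called higher and 5.12% lower. Of 12 growth hormone signalling genes, 1 rose and 3 fell: Igfals by 0.27 ± 0.06 (adjusted p = 0.00114, limma), Igfbp3, an IGF binding protein, by -0.33 ± 0.09 (adjusted p = 0.00811, limma), Stat5b by -0.20 ± 0.06 (adjusted p = 0.00888, limma) and Jak2 by -0.14 ± 0.04 (adjusted p = 0.0205, limma). Of 15 male-biased genes 1 passed, Cyp7b1 with 0.57 ± 0.14 (adjusted p = 0.00266, limma), and the median was 0.04. Of 16 listed female-biased genes 6 were tested and 1 passed, Cyp2b9 with 0.94 ± 0.26 (adjusted p = 0.00984, limma). It lay near the floor, with medians of 0.125 and 0.697 scaled TPM and zeros in 23 control and 16 high-fat mice. Its highest value in a high-fat mouse was 504.8. Of 19 receptors and regulators 4 rose, Dio1 by 1.10 ± 0.18, Nr1i3 by 0.52 ± 0.11, Cebpb by 0.47 ± 0.11 and Ppara by 0.24 ± 0.07, and 1 fell, the glucocorticoid-activating Hsd11b1 by -0.18 ± 0.05 (adjusted p = 9.15e-07, 0.000355, 0.000982, 0.011 and 0.0202, limma). Of 10 other lipocalins 1 rose, Obp2a by 2.38 ± 0.32, and Apom and Ambp fell by -0.30 ± 0.07 and -0.14 ± 0.04 (adjusted p = 2.5e-09, 0.00138 and 0.00779, limma).

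Over 74 control and 74 high-fat livers, after each diet's mean was removed, 6743 genes were ranked by their Spearman rho with the summed level. They lay outside the Mup family and averaged at least 5 scaled TPM, and genes with predicted or clone names were left out. The 5 most alike were the protease Capn8 (0.683), Cyp7b1 (0.643), the complement component C9 (0.632), the glucuronosyltransferase Ugt2b1 (0.631) and Hsd3b5 (0.592). The 5 lowest were the cytochromes P450 Cyp2c38 (-0.545) and Cyp2c39 (-0.542), the prostaglandin dehydrogenase Hpgd (-0.529) and the fatty acid hydroxylases Cyp4a10 (-0.520) and Cyp4a14 (-0.514). The median over all was 0.0329. Without libraries of low scale factor the 10 values kept their sign, at 0.566 to 0.657 and -0.496 to -0.549. These are descriptions over mice that share libraries and scaling.

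Muscle held only traces of these genes. Mup7 ranged from 0 to 982 with a median of 2.5 scaled TPM in control and from 0 to 2880 with a median of 2.76 in high-fat muscle. Mup3 ranged up to 91.5 and 443.8 with medians of 0.959 and 0.625, and Mup14 up to 114.2 and 843.6 with medians of 0.432 and 0.631. None of these 3 passed by diet (log2 fold changes 0.23 ± 0.43, 0.13 ± 0.32 and 0.41 ± 0.33, adjusted p = 0.891, 0.926 and 0.664, limma), against 1.45% of 13457 muscle genes called. Mup20 and Mup21 did not reach the expression filter in muscle and had medians of at most 0.108. In TPM as deposited, levels in liver were higher than in muscle by 10.25 ± 0.21 for Mup3, 11.23 ± 0.25 for Mup7, 8.88 ± 0.25 for Mup14, 9.29 ± 0.22 for Mup20 and 7.86 ± 0.16 for Mup21 on the log2(TPM + 1) scale. Mup3, Mup7 and Mup14 passed the filter in both tissues and were called (largest adjusted p = 4.37e-109, limma). Mup20 and Mup21 passed it only through liver, so their values are a description. In this comparison 90.6% of 14871 genes were called. The diet effect in liver minus that in muscle was not called for Mup3, Mup7 or Mup14, at 0.68 ± 0.49 for Mup14 (95% interval -0.29 to 1.64, adjusted p = 0.933, limma), against 0.202% of genes. That fit also used TPM as deposited, unlike the liver diet test. With values scaled within each tissue, the difference for Mup14 was 0.62 ± 0.42 and was not called (adjusted p = 0.527, limma).

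A sum of at least 100 scaled TPM of the 5 genes was found in 21 muscle libraries, 10 of them control and 2 of low scale factor. The summed level in muscle followed the summed hepatocyte markers in muscle across mice, with r = 0.926 in control and 0.962 in high-fat mice (permutation p = 1e-05 each, adjusted p = 2e-05) and rho = 0.836 and 0.895, and r was 0.908 and 0.949 without the 2 mice farthest from the median. In muscle the Mup sum was a median of 50.5% of the hepatocyte markers in control and 56.8% in high-fat mice, and in liver it was 51.4% and 73.1%. In single muscle libraries the share ran from 2.45% to 2033% in control and from 0 to 618.9% in high-fat mice. The highest Alb values in muscle were 1111 scaled TPM in control and 3655 in high-fat mice. Against the liver sum of the same mouse, the muscle sum had r = 0.264 in control (adjusted p = 0.0306) and -0.0877 in high-fat mice (adjusted p = 0.457), with rho = 0.201 and -0.0446 (adjusted p = 0.118 and 0.705). Liver-like RNA in a muscle library and Mup transcription in muscle cannot be told apart here.

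**Figure D5:**
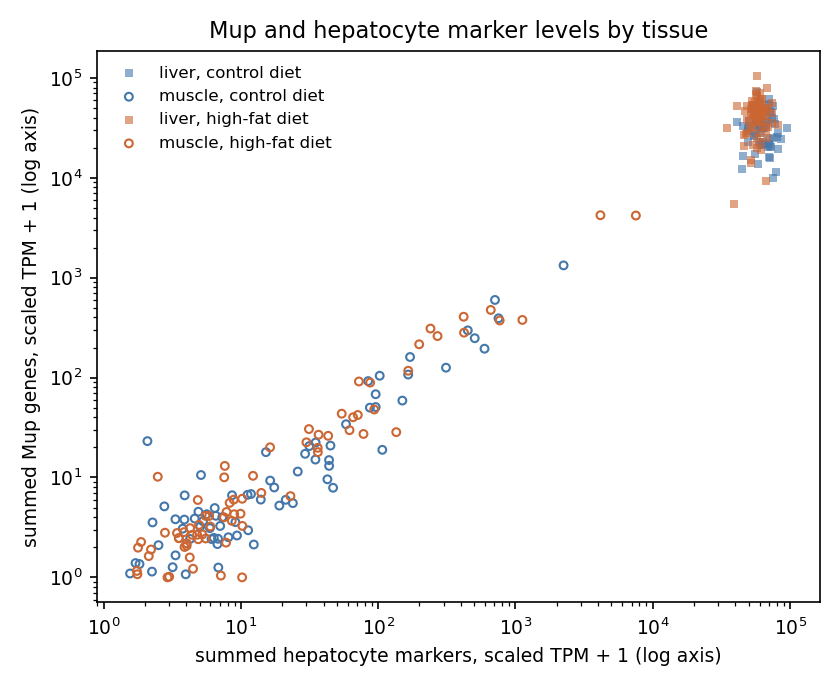
Summed Mup level against the summed hepatocyte markers (both scaled TPM + 1 on log axes) for liver (squares) and muscle (circles), with blue for control and orange for high-fat mice. In muscle both sums rise together with scatter, from 0 up to 4218 scaled TPM of Mup sum, and liver libraries sit at the top right.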

How the data were processed

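Stranded total RNA was sequenced on MiSeq, per the labels' protocols. Bowtie 1.2.2, Trim Galore 0.4.4 and FastQC stand in the submitters' processing notes. Neither quantifier nor genome build is stated there. The values deposited by the authors are TPM, since liver and muscle columns add up to a fixed total, and TPM keep no depth, so no counting interval can be given. Values under 1e-12 were set to 0. Ensembl IDs were matched to GENCODE M21 symbols (99.1% in liver and muscle). Each library was divided by a trimmed mean of log ratios over nuclear protein-coding genes without Lars2 (0.3 of ratios and 0.05 of levels trimmed at each end). Genes with at least 1 scaled TPM in a number of libraries equal to 0.7 of the smaller diet's mice were fitted with limma 3.58.1 (lmFit, eBayes with trend and robust) on log2(scaled TPM + 1), two-sided, adjusted by Benjamini-Hochberg over all genes tested, threshold 0.05. Such fold changes understate weakly expressed genes. Tissue and interaction fits used TPM as deposited without a block. Spread was tested with limma on each mouse's absolute distance from its diet's median. Sums and relations used 100000 permutations. The members, lists, tests and the rule for named genes (the Mup genes, up to 4 tested members per list with the smallest diet p, and the 5 genes most and least alike) were chosen with earlier results of these data known. Ghr, Igf1, Hsd11b1, Hnf4a, Cebpa, Foxo1, Slco1a1, Apoa2, Serpina1c, Serpina1a, Ahsg and Apoc3 fall outside that rule and are named after their values were seen. Acta1, a muscle fibre marker not tested by diet in liver, falls outside the rule as well. Tissues of the same number came from the same mouse, as the protocol says RNA was taken from each animal. Over 10899 genes, deviations correlated at a median of 0.254 for a liver and a muscle sharing a number and -0.00145 for unlike numbers. On simulated data of 12298 genes, 92% of genes changed by 0.5 and 100% of those changed by 1 (log2) were recovered by the liver diet test. Of the genes called there, 6.34% were false. The changed genes were drawn at random from all tested genes, with noise independent between genes. These rates were therefore not measured for the Mup genes and do not apply to them. Alternatives changed the scaling, pseudocount, filter, libraries and genes summed.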

Additional observations from a re-analysis of the deposited data

Results flagged for a closer look

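The library labelled muscle of mouse 80, a high-fat mouse, was used in no comparison, and both libraries of this mouse go against their tissue labels. It held 52314 TPM of the 5 summed Mup genes as deposited. Among the muscle libraries compared, the highest sum was 1327 scaled TPM in control and 4218 in high-fat mice, on a scale that is not that of TPM as deposited. The library labelled liver of the same mouse held 138.8 TPM.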

How the results depend on the processing

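TPM carry no depth, and shared reads limit single-gene values of Mup7 and Mup14. The number of the 5 genes called by diet in liver was 1, and it was 0 with TPM as deposited and 2 without the libraries with a second number. The summed level differed by 0.34, and by 0.23 (permutation p = 0.393) with TPM as deposited, by 0.22 (p = 0.181) with mouse 80, and by 0.10 (p = 0.295) for Mup3 and Mup21 alone, a sum chosen after seeing the data. The calls lost with TPM as deposited came while the number of liver genes called fell from 1209 to 59, of which 18.6% were higher against 47.9%, and the median moved from -0.0029 to -0.045. Without low-factor libraries 1924 genes were called. The cause of these shifts was not tested. Mup20 by diet turned to -0.0173 without low-factor libraries, and Mup3 with Mup20 in high-fat mice to 0.0199. The spread differences turned to 0.0787 (Mup7) and 0.0402 (Mup21) with TPM as deposited, and to 0.00986 (Mup3), 0.112 (Mup7) and 0.0299 (Mup20) with mouse 80, none past the threshold. With the replicate block of mouse, Mup3, Mup7 and Mup14 stayed called between liver and muscle, and none of their diet differences was called (Mup14 0.68, adjusted p = 0.92, limma). Of 36 alternative values that answer a comparison, 31 kept their direction and call or, for counts, stayed within 1.5 times. Among these, relations past the threshold without low-factor libraries went from 12 to 11 between the 5 genes and from 28 to 22 with listed genes. The 36 also hold counts that were 0 from the start and pseudocounts that matter little at these levels. Their liver minus muscle counts take in Mup20 and Mup21, whose values are a description. The tally is therefore no measure of how firm the results are. In muscle, alternatives added after seeing the data (TPM as deposited, without low-factor libraries, with mouse 80) called 0 of the tested members.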
